A study of Mus musculus with 6 samples.

Results

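Fezf2, Bcl11b, Sox5, Tle4, Cux1, Cux2, Rorb, Zbtb18 and Bcl11a are transcriptional regulators that mark or specify the layers of the cerebral cortex, and these 9 genes were taken by symbol from a table of 24444 genes. All 9 were in the table and all 9 passed the filter on low values, which left 14249 genes. The table comes from poly(A) RNA-seq of telencephalon at E12.5 of C57BL/6J mice, with 3 libraries of wild-type genotype and 3 of Arl13b-/- genotype. No other allele or agent is named for either group. The mutated gene, Arl13b, codes for a GTPase of cilia, and the series asks how neuronal cilia bear on the development of axon tracts. The labels do not say whether libraries are separate embryos, litters or pools, so each p-value measures only the spread between these libraries.

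Cortical neurons are born from the inside out. Deep-layer neurons, which send axons out of the cortex, come first, and upper-layer neurons, which mostly connect within the cortex, follow. Fezf2 specifies subcerebral projection neurons and acts upstream of Bcl11b (Ctip2), Sox5 controls the order in which deep-layer types appear, and Tle4 is a co-repressor that marks corticothalamic neurons. Cux1 and Cux2 mark upper layers, Rorb marks layer 4, and Zbtb18 (RP58) and Bcl11a (Ctip1) act in many cortical neurons as they leave the cell cycle and mature. Outside the cortex, Bcl11b is also expressed in striatal neurons and in skin.

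Values are given as normalized counts, obtained by undoing the authors' variance-stabilising transformation, or as variance-stabilised values on a log2 scale. Where 3 values are listed for a genotype, they follow the order of libraries 1 to 3. Depth was estimated as 27600000 to 51700000 reads per library. Arl13b stood at 660.9, 552.9 and 560.0 normalized counts in the wild-type libraries, against 492.2, 531.8 and 564.4 in the Arl13b-/- libraries. Since the table holds 1 value per gene and not per exon, these values leave the genotype labels unchecked.

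The libraries did not share one regional and cellular makeup, and 3 of the 6 bear on every value below. Emx1, a marker of the cortical field, stood at 633, 875 and 1161 normalized counts in the wild-type libraries, against 145, 2641 and 25.0 in the Arl13b-/- libraries. The library labelled Arl13b-/- 3 held 0.0245 times the mean Emx1 count of wild-type 2 and 3. It also held 0.0718 times their Eomes, a gene of cortical intermediate progenitors, 0.103 times their Lhx6, a gene of ventral telencephalic interneurons, and 0.156 times their Nkx2-1, a gene of the ventral telencephalon and hypothalamus. Pax6, a progenitor gene also found outside the telencephalon, was at 1.02 times, so the markers of this library met its telencephalon label only in part. In Arl13b-/- 2 Emx1 was high, whereas 18 cell cycle genes summed to 3413 normalized counts, compared with 104327 in wild-type 2 and 112038 in wild-type 3. Wild-type 1 also had fewer cell cycle transcripts (25973) and carried skin transcripts (14 surface ectoderm genes summed to 19918, compared with 5223 in wild-type 2 and 2353 in wild-type 3). The difference of each factor is therefore given for all 6 libraries, for 4 (wild-type 2 and 3 against Arl13b-/- 1 and 3), and for 3 (wild-type 2 and 3 against Arl13b-/- 1 alone). Differences of other genes and of lists are mostly given for the 4 libraries. Sex and genotype cannot be told apart in the 4 libraries or in the 3. The Y-linked gene Ddx3y had 1093 and 1258 normalized counts in wild-type 2 and 3, and 0.0 and 1.24 in Arl13b-/- 1 and 3. Xist, a female-expressed RNA, stood at 15101, 26.5 and 213 normalized counts in the wild-type libraries, against 16292, 243.7 and 19017 in the Arl13b-/- libraries. Arl13b-/- 2 had little Xist and 0.0 counts of Ddx3y, so these markers leave its sex unclear.

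**Figure D1:**
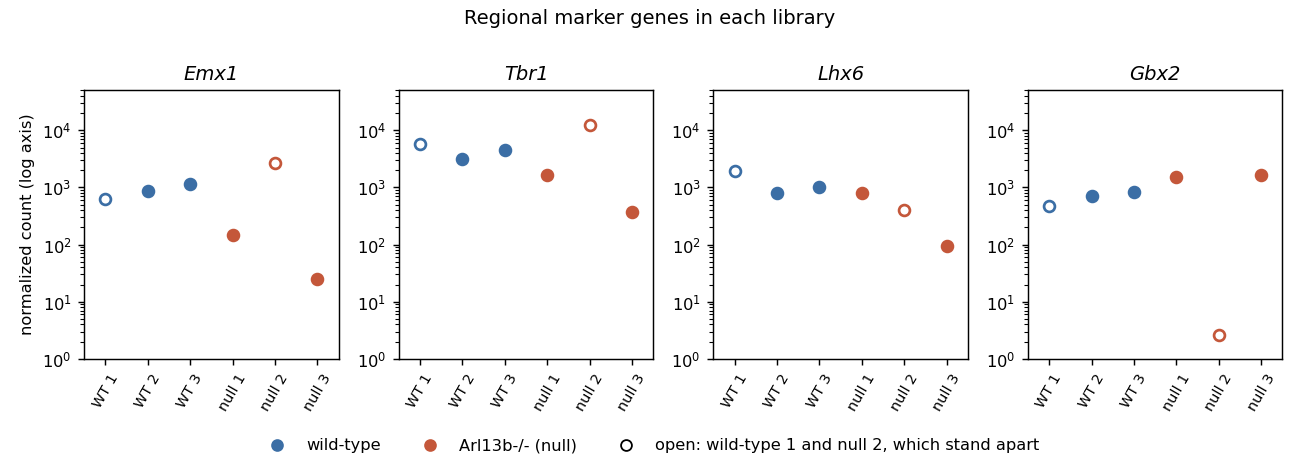
Normalized counts (log axis) of Emx1, Tbr1, Lhx6 and the diencephalic and ventral marker Gbx2, 1 point per library, with wild-type (WT) in blue and Arl13b-/- (null) in red. Emx1 had 25.0 counts in null 3 and 145 or more in each of the other 5 libraries.

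In the 4 libraries, Fezf2 and Bcl11b had the largest differences among the 9 factors, Sox5, Zbtb18 and Bcl11a were lower to a smaller extent, and the upper-layer genes Cux1, Cux2 and Rorb and the co-repressor Tle4 differed by at most 0.13 on the log2 scale. No factor passed the test over all genes. Of the 9, 0 passed in limma (adjusted p between 0.104 and 0.961), beside 0.253% of all genes, and 5 had an unadjusted p under 0.05, beside 14.4% of all genes. All 5 were lower, beside 6.33% of all genes. The median difference of the 9 was −0.29, against 0.023 over all genes tested. Over all 6 libraries the picture was different: 0 of 9 passed, beside 0.0% of all genes, and 0 of 9 had an unadjusted p under 0.05, beside 1.14%. The median was then 0.092, against 0.003 over all genes. Wild-type 1 and Arl13b-/- 2 held more of 7 of the 9 transcripts than any other library. This order, with both libraries above the other 4, was found for 30.0% of all genes tested.

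**Figure D2:**
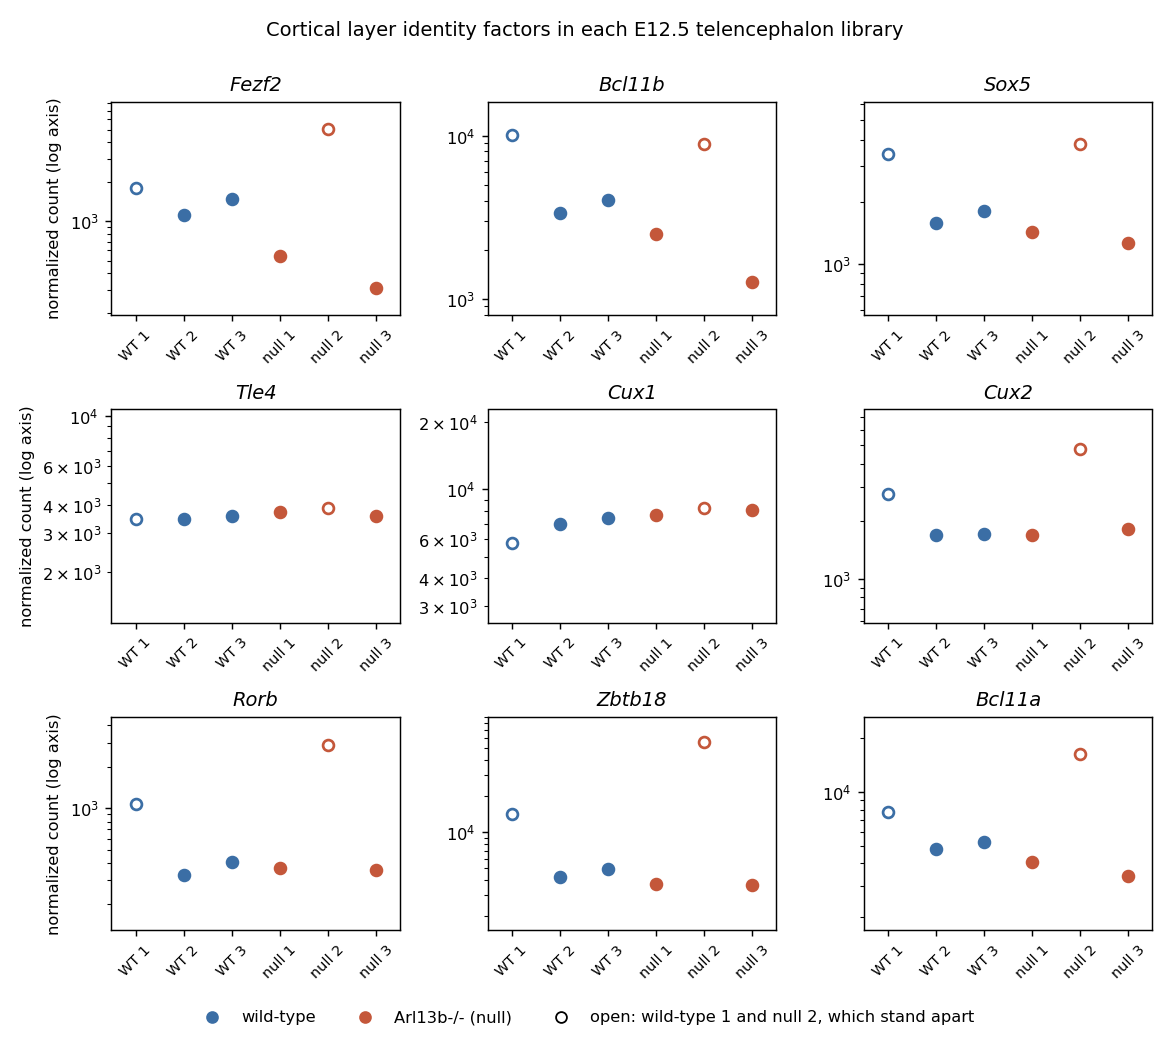
Normalized counts (log axis) of the 9 factors in each library, with wild-type (WT) in blue, Arl13b-/- (null) in red and wild-type 1 and null 2 as open circles. For Fezf2, null 1 and 3 had 544.9 and 307.3 counts, below every wild-type library, whereas null 2 had 5104.

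The promoters of Fezf2, Bcl11b and Bcl11a, the 3 factors with the largest differences in the 4 libraries, are shown because these members were lower together in Arl13b-/- 1 and 3. Sequences are from RefSeq, build GRCm38.p6, cover 250 bases before to 50 after a gene start, and run 5′ to 3′ along the gene. That build differs from mm9, which the submitters' processing notes name. Capitals mark matches to any of 3 motifs, searched on both strands: the E-box CAGATG of proneural factors, the T-box half-site GGTGTGA (the binding family of Tbr1) and the SOX core AACAAT.
Fezf2 (chr14:12345816-12346115, minus strand): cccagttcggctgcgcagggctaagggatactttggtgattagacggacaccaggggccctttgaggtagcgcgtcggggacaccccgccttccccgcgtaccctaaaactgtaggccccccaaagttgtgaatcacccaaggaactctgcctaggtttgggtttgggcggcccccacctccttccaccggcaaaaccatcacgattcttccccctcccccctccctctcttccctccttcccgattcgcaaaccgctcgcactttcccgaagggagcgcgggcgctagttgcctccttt
Bcl11b (chr12:108003365-108003664, minus strand): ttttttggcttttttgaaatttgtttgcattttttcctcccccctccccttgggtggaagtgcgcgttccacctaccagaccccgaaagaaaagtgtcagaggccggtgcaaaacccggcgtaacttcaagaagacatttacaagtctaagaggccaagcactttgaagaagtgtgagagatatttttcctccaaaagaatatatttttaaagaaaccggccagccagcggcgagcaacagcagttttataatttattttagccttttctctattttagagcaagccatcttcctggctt
Bcl11a (chr11:24080445-24080744, plus strand): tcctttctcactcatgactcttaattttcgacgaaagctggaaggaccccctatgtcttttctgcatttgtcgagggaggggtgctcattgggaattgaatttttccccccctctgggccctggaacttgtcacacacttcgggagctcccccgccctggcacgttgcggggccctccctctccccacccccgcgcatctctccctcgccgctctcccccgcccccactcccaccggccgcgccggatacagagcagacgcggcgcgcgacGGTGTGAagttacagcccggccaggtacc
The T-box half-site was found once in the Bcl11a promoter, and none of the 3 motifs was found in the Fezf2 or Bcl11b window. The half-site is in 3.98% of 32851 promoters of the same length, the E-box in 17.2% and the SOX core in 10.7%. All 9 factors had an entry, with 16 promoters in all. The E-box was in 6 of these, of which 5 belong to Zbtb18 and in part overlap, the half-site in 1 and the SOX core in 1. A match is only a run of letters, and its absence says nothing about a factor's binding.

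Fezf2, the zinc finger gene of subcerebral neurons, had the largest difference of the 9 in the 4 libraries. It stood at 1805, 1110 and 1478 normalized counts in the wild-type libraries, against 544.9, 5104 and 307.3 in the Arl13b-/- libraries. Arl13b-/- 1 and 3 lay below all wild-type libraries, and Arl13b-/- 2 lay above them. Set against the average of wild-type 2 and 3, Fezf2 was at 0.421 times in Arl13b-/- 1 and 0.237 times in Arl13b-/- 3. The difference in the 4 libraries was −1.50 ± 0.25 (SE, n = 2 per group; limma adjusted p = 0.104), within the lowest 0.400% of differences over all genes. Without Arl13b-/- 3 it was −1.14 ± 0.16 (limma adjusted p = 0.0576), and without Arl13b-/- 1 it was −1.85 ± 0.16 and past the threshold (limma adjusted p = 0.00378). That last fit sets Arl13b-/- 3 alone against 2 wild-type libraries, takes its spread from wild-type only, and put 725 genes past the threshold (5.09% of all genes). Over all 6 libraries it was −0.51 ± 0.99 (limma adjusted p = 0.990; two-sided exact permutation p = 0.8, with 0.1 the smallest value possible for 3 against 3). In bulk tissue, fewer cells of a type and less RNA per cell cannot be told apart.

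Fezf2 and Tbr1 ranked the 6 libraries in the same order, as did Sox5, Zbtb18 and Bcl11a. This order, looked for after the values were seen, was shared by 2.4% of all genes tested. Tbr1, the transcription factor of the earliest deep-layer neurons, stood at 5737, 3193 and 4531 normalized counts in the wild-type libraries, against 1620, 12151 and 369.3 in the Arl13b-/- libraries. The ratio of Fezf2 to Tbr1 counts was 0.315, 0.348 and 0.326 in wild-type 1 to 3, and 0.336 in Arl13b-/- 1, inside the wild-type range. It was 0.420 in Arl13b-/- 2 and 0.832 in Arl13b-/- 3. In Arl13b-/- 1, the ratios of Bcl11b (1.55) and Zbtb18 (2.3) to Tbr1 also lay inside their wild-type ranges. Those of Sox5 (0.887), Bcl11a (2.53), Tle4, Cux1, Cux2 and Rorb lay above theirs. These ratios were chosen after the values were seen and were not tested. In Arl13b-/- 3, Fezf2 stood at 307.3 counts beside 25.0 for Emx1. Fezf1, the paralog of Fezf2 in ventral and diencephalic forebrain, had 742 and 765 counts in wild-type 2 and 3, and 1075 and 575 in Arl13b-/- 1 and 3, so its groups of 2 overlapped.

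Bcl11b, the zinc finger protein downstream of Fezf2, stood at 10058, 3374 and 4061 normalized counts in the wild-type libraries, against 2510, 8827 and 1275 in the Arl13b-/- libraries. Again Arl13b-/- 1 and 3 were lowest and Arl13b-/- 2 lay within the wild-type range. The 4-library difference was −1.02 ± 0.30 (SE, n = 2 per group; limma adjusted p = 0.238), and Arl13b-/- 1 and 3 stood at 0.675 and 0.343 times the mean of wild-type 2 and 3. Its size differed by library: without Arl13b-/- 3 the difference was −0.55 ± 0.11 (limma adjusted p = 0.120), and without Arl13b-/- 1, where Arl13b-/- 3 alone was set against the spread of 2 wild-type libraries and 5.09% of all genes passed, it was −1.49 ± 0.11 (limma adjusted p = 0.00222). Over all 6 libraries it was −0.74 ± 0.79 (limma adjusted p = 0.990; exact permutation p = 0.4). It ran from −1.49 without Arl13b-/- 2 to −0.13 without Arl13b-/- 3, and was −0.27 without wild-type 1.

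Striatal and skin transcripts, which Bcl11b-expressing cells outside the cortex contribute, also varied. The 18 genes of GABAergic and striatal neurons summed to 30279 to 39787 normalized counts in wild-type libraries, and to 34218, 19238 and 27925 in Arl13b-/- 1 to 3. All 14 surface ectoderm genes had non-overlapping groups and were lower in the 3 Arl13b-/- libraries (0 passed in limma; 3.59% of all genes were lower without overlap). They summed to 1000, 220 and 391 there, and Krt5, Krt8, Krt15 and Cdh1 were listed at 0 in Arl13b-/- 2 and Krt14 in Arl13b-/- 3. Their part in the Bcl11b values was not tested.

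Sox5, a SOX factor of subplate and deep-layer neurons, stood at 3429, 1578 and 1809 normalized counts in the wild-type libraries, against 1437, 3833 and 1271 in the Arl13b-/- libraries. Both groups held 1 high library. The 4-library difference was −0.31 ± 0.091 (SE, n = 2 per group; limma adjusted p = 0.243), with Arl13b-/- 1 and 3 at 0.848 and 0.751 times the mean of wild-type 2 and 3. Over all 6 libraries it was −0.15 ± 0.52 (limma adjusted p = 0.990). Its paralog Sox6 was also lower in Arl13b-/- 1 and 3 (−0.62 ± 0.14; limma adjusted p = 0.161), whereas Sox13 was higher (0.60 ± 0.16; limma adjusted p = 0.204). Neither passed.

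Tle4 was the most even of the 9, spanning 0.16 on the log2 scale over 6 libraries that differed by 3.92 for Zbtb18. It stood at 3453, 3461 and 3564 normalized counts in the wild-type libraries, against 3737, 3873 and 3578 in the Arl13b-/- libraries. All 3 Arl13b-/- values lay above all wild-type values. The difference was 0.092 ± 0.14 (SE, n = 3 per group; limma adjusted p = 0.990; exact permutation p = 0.1), and its sign turned with quantile normalization (−0.021). In the 4 libraries it was 0.057 ± 0.049 (limma adjusted p = 0.652). Among its paralogs, the 4-library difference was −0.11 for Tle1, −0.041 for Tle2, 0.15 for Tle3 and −0.009 for Aes, and none passed.

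Cux1, a homeodomain factor of upper layers that is also expressed in progenitors, was the other gene without overlap over all 6 libraries. It stood at 5774, 6959 and 7463 normalized counts in the wild-type libraries, against 7705, 8263 and 8067 in the Arl13b-/- libraries. The difference was 0.26 ± 0.17 (SE, n = 3 per group; limma adjusted p = 0.990; exact permutation p = 0.1), and 0.13 ± 0.056 in the 4 libraries (limma adjusted p = 0.377). Without wild-type 1 the difference was 0.15. Thus 2 of 9 factors were higher in Arl13b-/- without overlap and 0 lower, beside 4.67% and 3.59% of all genes.

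Cux2, the closest relative of Cux1, did not follow it. It stood at 2776, 1697 and 1712 normalized counts in the wild-type libraries, against 1703, 4789 and 1827 in the Arl13b-/- libraries. Wild-type 2, wild-type 3 and Arl13b-/- 1 were nearly equal, and Arl13b-/- 2 was 2.81 times the mean of wild-type 2 and 3. The 4-library difference was 0.048 ± 0.057 (SE, n = 2 per group; limma adjusted p = 0.750). The value for all 6 libraries was 0.29 ± 0.46 (limma adjusted p = 0.990), and −0.18 without Arl13b-/- 2.

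Rorb, the nuclear receptor of layer 4, stood at 1074, 329.0 and 408.9 normalized counts in the wild-type libraries, against 367.1, 2866 and 357.4 in the Arl13b-/- libraries. Arl13b-/- 1 and 3 lay between wild-type 2 and wild-type 3, and the 4-library difference was −0.016 ± 0.11 (SE, n = 2 per group; limma adjusted p = 0.961). The 6-library difference was 0.44 ± 0.88 (limma adjusted p = 0.990), and −0.48 without Arl13b-/- 2. Its paralog Rora was higher in Arl13b-/- 1 and 3 (0.38 ± 0.11; limma adjusted p = 0.230), and did not pass. Over all 6 libraries the Rora difference had the other sign (−0.16).

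Zbtb18, a transcriptional repressor of differentiating cortical neurons, spanned the widest range. It stood at 14195, 4228 and 4881 normalized counts in the wild-type libraries, against 3727, 56397 and 3657 in the Arl13b-/- libraries. Arl13b-/- 2 held 12.4 times, and wild-type 1 3.12 times, the mean of wild-type 2 and 3. Arl13b-/- 1 and 3 were close to each other, at 0.818 and 0.803 times that mean, with a 4-library difference of −0.29 ± 0.076 (SE, n = 2 per group; limma adjusted p = 0.199). The 6-library difference had the other sign, 0.47 ± 1.18 (limma adjusted p = 0.990).

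Bcl11a, the paralog of Bcl11b, stood at 7771, 4833 and 5281 normalized counts in the wild-type libraries, against 4096, 16451 and 3391 in the Arl13b-/- libraries. Arl13b-/- 1 and 3 lay below all wild-type libraries, at 0.810 and 0.670 times the mean of wild-type 2 and 3. The 4-library difference was −0.43 ± 0.099 (SE, n = 2 per group; limma adjusted p = 0.166). Without Arl13b-/- 3 it was −0.30 ± 0.071 (limma adjusted p = 0.185). With Arl13b-/- 3 alone against the 2 wild-type libraries, the fit in which 5.09% of all genes passed, it was −0.57 ± 0.071 (limma adjusted p = 0.0114). The 6-library difference was 0.070 ± 0.63 (limma adjusted p = 0.996).

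**Figure D3:**
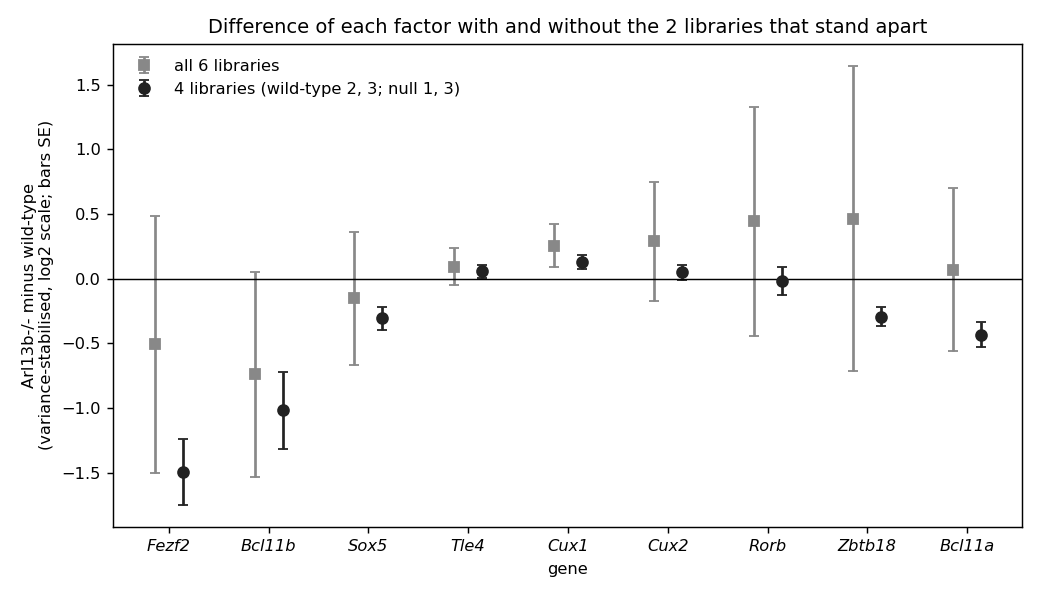
Difference of mean variance-stabilised values (Arl13b-/- minus wild-type, log2 scale, bars SE) of each factor over all 6 libraries (grey squares) and over 4 (black circles). Fezf2 was at −1.50 and Bcl11b at −1.02 in the 4 libraries, and the SE over 6 libraries reached 1.18 for Zbtb18.

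Without Arl13b-/- 3, 5 of the 9 factors were still below both wild-type 2 and 3 in Arl13b-/- 1 (Fezf2, Bcl11b, Sox5, Zbtb18 and Bcl11a) and 2 were above both (Tle4 and Cux1), beside 29.6% and 44.1% of all genes. With Arl13b-/- 3 included, the same factors had non-overlapping groups in these directions, 5 lower and 2 higher, beside 18.1% and 29.3% of all genes. In the 3-library fit 0 of 9 passed, beside 0.547% of all genes, and 4 had an unadjusted p under 0.05, beside 10.6% of all genes. The difference was −0.28 ± 0.091 for Zbtb18 and −0.22 ± 0.094 for Sox5 (SE; limma adjusted p = 0.352 and 0.485). Tle4 (0.088 ± 0.059), Cux1 (0.096 ± 0.065), Cux2 (−0.001 ± 0.065) and Rorb (0.000 ± 0.14) lay nearer 0, with limma adjusted p of 0.652 or more. That fit takes its spread from wild-type alone and sets 1 library against 2. Sex and genotype cannot be told apart in it either.

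Within-library ratios between factors compare them free of any scaling between libraries, but not free of differences in tissue makeup. Of 36 pairs among the 9 factors, 5 had ratios that did not overlap between the 3 wild-type and 3 Arl13b-/- libraries (13.9%), beside 8.43% of all pairs of tested genes, and 4 of these 5 involved Bcl11b. Pairs that share a gene are not independent. The ratio of Bcl11b to its paralog Bcl11a was 1.29, 0.698 and 0.769 in the wild-type libraries, against 0.613, 0.537 and 0.376 in the Arl13b-/- libraries. Bcl11b to Cux2 was 3.62, 1.99 and 2.37 against 1.47, 1.84 and 0.698, and Bcl11b to Zbtb18 was 0.709, 0.798 and 0.832 against 0.674, 0.157 and 0.349. Bcl11b to Rorb was even across wild-type libraries, at 9.37, 10.3 and 9.93, and was 6.84, 3.08 and 3.57 in Arl13b-/- 1 to 3.

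The remaining pair was Sox5 to Cux2, with 1.24, 0.930 and 1.06 against 0.844, 0.800 and 0.696. The mean log2 ratio of Bcl11b to Rorb differed by −1.22, of Bcl11b to Cux2 by −1.06 and of Bcl11b to Bcl11a by −0.83. In the 4 libraries these differences were −1.03, −1.10 and −0.61. For each of the 5 pairs the exact two-sided permutation p was 0.1, the smallest this design allows, before any adjustment over 36 pairs. The margin was small for Bcl11b to Zbtb18, where wild-type 1 and Arl13b-/- 1 had 0.709 and 0.674. Fezf2 to Cux2 overlapped, at 0.650, 0.654 and 0.864 against 0.320, 1.07 and 0.168, and Arl13b-/- 2 had the highest ratio of the 6 libraries.

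**Figure D4:**
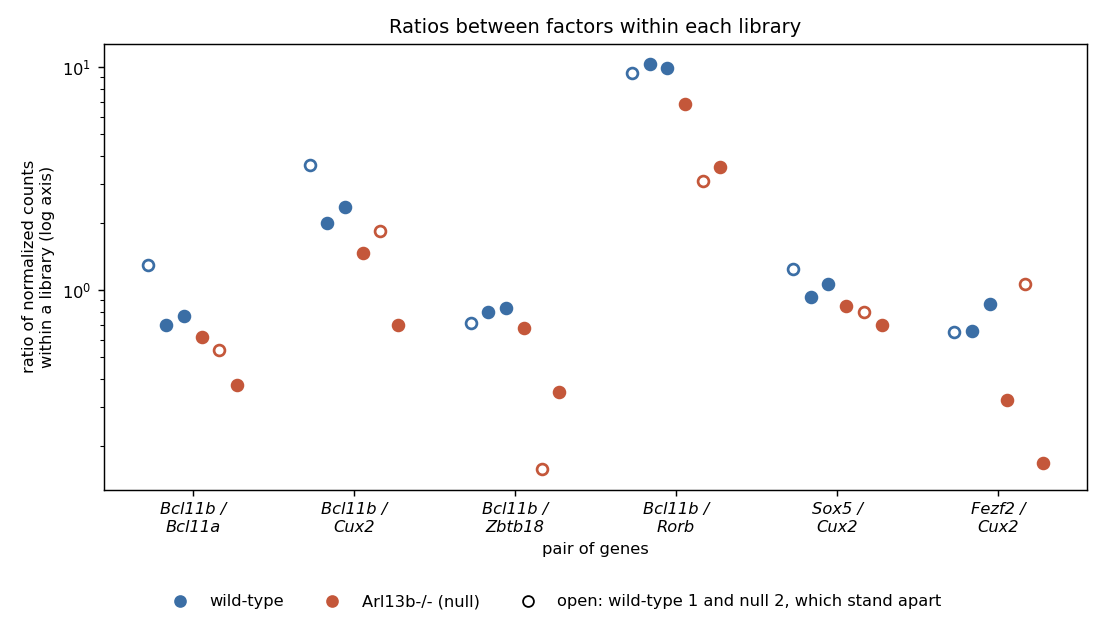
Ratio of normalized counts (log axis) between pairs of factors in each library, with wild-type (WT) in blue, Arl13b-/- (null) in red and wild-type 1 and null 2 as open circles. Bcl11b to Rorb lay between 9.37 and 10.3 in wild-type and between 3.08 and 6.84 in null libraries.

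The other genes of layer identity gave a mixed account. Of 19 deep-layer and subplate genes, 2 fell and 0 rose in the 4 libraries in limma, beside 0.182% and 0.0702% of all genes, with a median difference of −0.017 against 0.023 over all genes. Nfib, a nuclear factor I gene, fell by 1.11 ± 0.11 on the log2 scale (SE; limma adjusted p = 0.0437), from 5685 and 6876 normalized counts in wild-type 2 and 3 to 3054 and 2667 in Arl13b-/- 1 and 3. Rprm, a cell cycle inhibitor that marks deep layers, fell by 0.61 ± 0.051 (SE; limma adjusted p = 0.0323), from 1998 and 2061 to 1295 and 1316. Both kept their call without Arl13b-/- 3 (limma adjusted p = 0.0311 and 0.0305) and lost it without wild-type 2 (0.125 and 0.179) or wild-type 3 (0.121 and 0.137), without the filter (0.367 and 0.0671) and without the mean-variance trend (0.0998 and 0.0835). In wild-type 1 and Arl13b-/- 2 they had 18604 and 10958 counts for Nfib, and 3604 and 18982 for Rprm. Over all 6 libraries Nfib differed by −0.995 and Rprm, with the other sign, by 0.384.

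Nr4a2, a nuclear receptor of subplate neurons, differed by −0.41 ± 0.064 (SE) and Ctgf by 0.94 ± 0.13, and neither passed (limma adjusted p = 0.0905 and 0.0737). Over all 6 libraries Nr4a2 had the other sign (0.27), and Ctgf differed by 1.04. Of 15 upper-layer genes measured, 0 passed in limma, 6 were above and 9 below 0, and the median was −0.024. Among the POU factors, Pou3f1 (0.48 ± 0.062, SE; limma adjusted p = 0.0689) and Pou3f2 (0.71 ± 0.13; limma adjusted p = 0.111) lay above 0, and Pou3f3 was at 0.000 ± 0.061. Lhx2, a cortical selector gene, lay below 0 (−0.75 ± 0.14; limma adjusted p = 0.123).

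Summed markers of neurons and progenitors were no lower in Arl13b-/- 1 and 3 than in wild-type 2 and 3, but Eomes, a defining gene of cortical intermediate progenitors, was lower. The 16 postmitotic neuron genes summed to 185651 and 184537 normalized counts in wild-type 2 and 3, and to 197545 and 196370 in Arl13b-/- 1 and 3. The 13 radial glial genes summed to 122479 and 126234 against 137865 and 154575, and the 10 intermediate progenitor genes to 28177 and 29377 against 31469 and 33846. Eomes, which is in this last sum, stood at 2854, 2200 and 2987 normalized counts in the wild-type libraries, against 878.7, 31.5 and 186.1 in the Arl13b-/- libraries. Its groups did not overlap, and its 4-library difference of −2.43 ± 0.60 (SE, n = 2 per group) did not pass (limma adjusted p = 0.184). By contrast, Arl13b-/- 2 had 850363 for postmitotic neurons, 5575 for radial glia and 8092 for intermediate progenitors, and wild-type 1 had 368675, 59252 and 18277.

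Regional markers differed between the libraries. Set against wild-type 2 and 3, the mean of 12 telencephalic genes differed by −0.58 in Arl13b-/- 1 and by −2.07 in Arl13b-/- 3, and that of 15 thalamic and diencephalic genes by 0.40 and 0.72. In wild-type 1 the telencephalic mean differed by −0.48, close to Arl13b-/- 1, and in Arl13b-/- 2 by −2.10, close to Arl13b-/- 3. The diencephalic mean differed by −1.27 and −4.97 in those 2 libraries. On the diencephalic list 13 of 15 genes were above 0 and 1 rose in limma (Gbx2, 0.96 ± 0.093, SE; adjusted p = 0.0437, and 0.0420 without Arl13b-/- 3). On the telencephalic list 10 of 12 were below 0, and the 1 that passed was higher (Six3, 0.66 ± 0.068; limma adjusted p = 0.0478). Over all 6 libraries Gbx2 and Six3 had the other sign (−0.54 and −0.82). Both lost their call without wild-type 2 (limma adjusted p = 0.167 and 0.231) or wild-type 3 (0.0911 and 0.125), without the filter (0.329 each) and without the trend (0.0873 and 0.102). Six3 also lost it with centring (0.0543) and with log2 inverted counts (0.0544 with pseudocount 1 and 0.0501 with pseudocount 10). The summed telencephalic counts were 34636 and 45297 in wild-type 2 and 3, 27247 in Arl13b-/- 1 and 15108 in Arl13b-/- 3. In limma, 0 genes passed in either comparison on the lists of GABAergic and striatal neurons, cell cycle, radial glia, postmitotic neurons, intermediate progenitors, surface ectoderm and the members' paralogs. Olig3, Dbx1, Sox14, Otx2 and Neurog1 of the diencephalic list were listed at 0 in Arl13b-/- 2. The part of tissue makeup in the Fezf2 and Bcl11b differences was not tested.

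**Figure D5:**
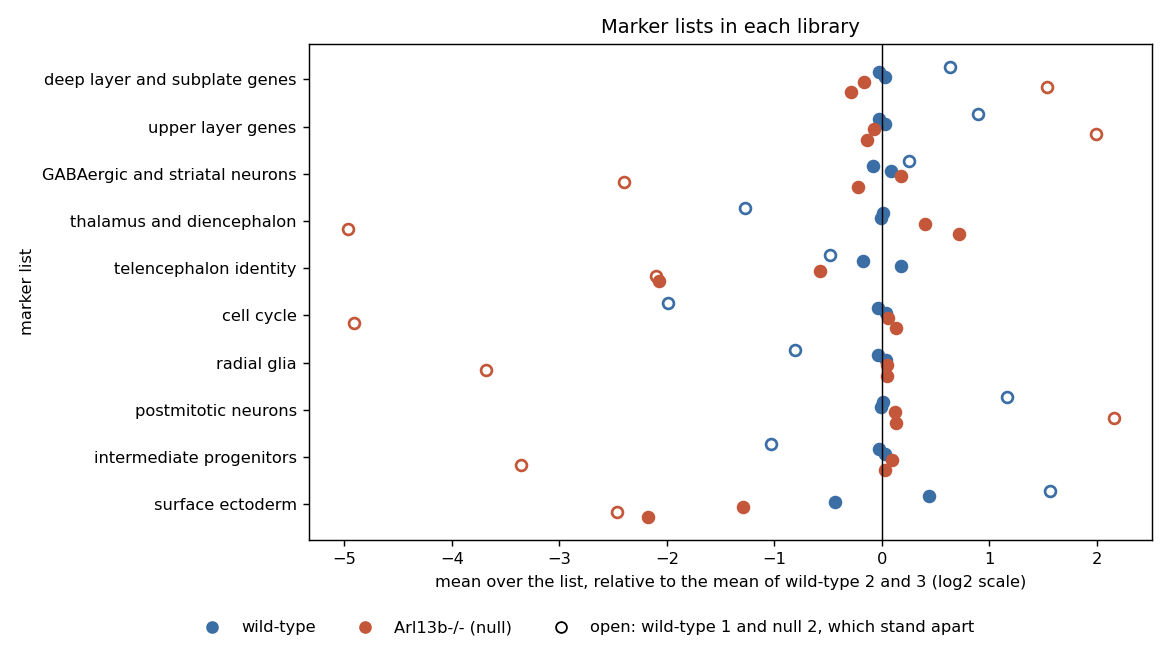
Mean of each marker list minus the average of wild-type 2 and 3 (log2 scale), 1 point per library, with wild-type in blue, Arl13b-/- (null) in red and wild-type 1 and null 2 as open circles. The telencephalic list was at −2.07 in null 3, −2.10 in null 2, −0.58 in null 1 and −0.48 in wild-type 1, and the cell cycle list at −4.91 in null 2 and −1.99 in wild-type 1.

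The 9 profiles differed from each other over the 6 libraries. After centring each gene on its own mean, Tle4 and Cux1 were the closest pair (root mean square difference 0.134 on the log2 scale), both being nearly flat, followed by Sox5 and Cux2 (0.261) and Sox5 and Bcl11a (0.280). Fezf2 lay nearest to Bcl11b among the factors (0.524), and Cux1 lay 0.558 from Cux2. Among 13456 other genes with a regular symbol, the closest to Fezf2 were Stac (0.319) and Sel1l3 (0.364). Stac stood at 209, 58.9 and 86.3 normalized counts in the wild-type libraries, against 24.5, 531 and 16.2 in the Arl13b-/- libraries.

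Bcl11b was closest to Dscaml1, an adhesion molecule (0.226), and to the GABA receptor subunit gene Gabra2 (0.229). Zbtb18 was closest to Ldb2, a LIM-domain cofactor on the deep-layer list (0.082), and to the thyroid hormone receptor gene Thra (0.096). Cux2 was closest to the netrin receptor family gene Neo1 (0.021) and to Cry2 (0.035), Rorb to Fchsd1 (0.059) and Prrt3 (0.060), and Bcl11a to Cdk19 (0.061) and Chst2 (0.076). Sox5 was closest to Dleu7 (0.077) and Khdrbs2 (0.079), and Tle4 to Pafah1b2 and Shoc2 (0.020 each). These profiles rest mostly on wild-type 1 and Arl13b-/- 2, which share the high values of 7 of the 9 factors.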

How the data were processed

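The deposited table gives variance-stabilised counts on a log2-like scale for 24444 genes in 6 libraries. The submitters' processing notes name the aligner STAR 2.6.0, the quantifier Salmon 0.9.1, both DESeq 1.16.1 and DESeq2, CASAVA, and the build mm9, with no role or order. Annotation and filters are not stated in the sources at hand. The lowest value, 5.13, is shared by all libraries and equals a count of 0, which fixes the parametric transformation, and this was inverted to normalized counts. The most frequent low value in a library was taken as 1 read. Only 75.2% to 83.9% of values below 20 reads came within 0.05 of whole numbers, so no count test was run.

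Genes with a mean at least 1 above the lowest value were tested with limma 3.58.1 in R 4.3.3 (moderated test, mean-variance trend, two-sided, Benjamini-Hochberg over all genes, threshold 0.05). Members, lists and the 4-library comparison were chosen with earlier results of these data known; the 3-library fit, a planned leave-one-out fit, was given more room once the regional markers were seen. Named genes are the members, their paralogs, the 2 genes most like each member, the 4 genes with the smallest p per list and genes past the threshold. Tbr1, Eomes, Lhx6, Nkx2-1, Pax6, Pou3f3, Ddx3y, Xist, the library order and the marker ratios were chosen after their values were seen. Some genes under this rule are not reported here. Alternatives covered the filter, scaling, moderation, the pseudocounts 1 and 10, library weights, a replicate block and leaving out libraries. In simulated data with 200 changed genes, a log2 change of 1 was recovered in 6% of genes with 6 libraries and 80.6% with 4. The simulated noise was independent between genes, without the differences in makeup or sex that the libraries carry. These rates are averages over genes, and need not hold for Fezf2 and Bcl11b, with SE of 0.25 and 0.30 in the 4 libraries. Figures used matplotlib 3.10.9.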

Additional observations from a re-analysis of the deposited data

How the results depend on the processing

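Over all 6 libraries, no factor passed under any of 17 alternatives, and 0 genes passed in the fit as reported, against 3 without the filter, 36 in the 4 libraries and 110 with library weights estimated gene by gene, a setting added after the data were seen because the default estimate did not converge and was not used. Leaving out each library gave 0 to 4 genes, the 4 without wild-type 1. The sign of a 6-library difference turned for Tle4 with quantile normalization (−0.021) and for Bcl11a with quantile normalization (−0.17), library weights (−0.40) and the 4 libraries (−0.43). It also turned for Rorb (−0.014 with weights, −0.016 in the 4 libraries) and Zbtb18 (−0.29 in both). Leaving out 1 library took Fezf2 from −1.65 to 0.24, Bcl11b from −1.49 to −0.13, Cux1 from 0.15 to 0.33, Sox5 from −0.64 to 0.18, Cux2 from −0.18 to 0.55, Rorb from −0.48 to 0.91, Zbtb18 from −0.84 to 1.12 and Bcl11a from −0.64 to 0.49.

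In the 4 libraries 36 genes passed, against 1 without the filter, 7 without the trend, 59 with quantile normalization and 98 with robust moderation. Leaving out 1 of the 4 gave 6 (without wild-type 2) to 725 genes (without Arl13b-/- 1), with 17 without wild-type 3 and 78 without Arl13b-/- 3, and 0 to 3 factors, the 3 being Fezf2, Bcl11b and Bcl11a without Arl13b-/- 1, a fit that tests Arl13b-/- 3 alone against the spread of wild-type. Leave-one-out values ran from −0.001 to 0.097 for Cux2 and from −0.15 to 0.12 for Rorb. Fezf2, Bcl11b, Sox5, Zbtb18 and Bcl11a kept a negative and Cux1 and Tle4 a positive sign under all 12 alternatives. The cause of these changes was not tested. With the replicate number as a block, 0 genes and 0 factors passed over 6 libraries. Same-numbered libraries deviated from their group means together at r = −0.71, −0.71 and 0.62. Wild-type 1 and Arl13b-/- 2, which stand apart, had r = 0.71 with each other. Because these libraries set much of the deviations in their groups, the r values cannot tell whether equal numbers mark a pair. The 4 libraries share only 1 number. Depth limits only low counts, and all factors had more than 300 normalized counts in each library.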
